A study of Mus musculus with 18 samples.

Results

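Granins and the enzymes that process prohormones were followed through sorted colon epithelial cells and colon crypts of mice with and without Olfr78, an olfactory receptor for short-chain fatty acids. The 10 genes were taken by name, 6 granins or granin-like proteins (Chga, Chgb, Scg2, Scg3, Scg5 and Pcsk1n) and 4 enzymes (Pcsk1, Pcsk2, Cpe and Pam), out of 52636 genes listed for 18 libraries. Each name matched exactly 1 gene.

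The sorted cells came from the Olfr78-GFP line on a B6;129P2 background, in which a GFP-IRES-tauLacZ cassette stands in place of the Olfr78 coding exon, so that GFP is made from the Olfr78 locus. In mice aged 4 to 7 months, Epcam+ve/GFP+ve cells were sorted into 2 pools of heterozygous Olfr78 GFP/+ animals (HE) and 2 pools of homozygous Olfr78 GFP/GFP animals (KO), each pool from 2 mice, whereas the 2 Epcam+ve samples (GFP-ve in the titles) were both taken from 1 WT mouse. Whole crypts were sampled from 2 WT and 5 KO mice of this line. A second line, Vil1Cre/+-Olfr78fx, loses Olfr78 in the epithelium only, where the Villin promoter drives Cre. It gave crypts of 3 controls (eCtrl, either Vil1+/+ with the floxed allele or Vil1Cre/+ with Olfr78 intact) and of 2 mice labelled eKO. The paper defines eKO as Vil1Cre/+-Olfr78fx/fx. No age was given for the crypt mice. The paper lists the stocks of the second line as B6, 129 and calls the genetic backgrounds of the 2 lines distinct. Line and background therefore cannot be told apart in the crypts. The labels give eKO mouse 2 the genotype code WT/HO, which eCtrl mouse 2 also carries, while eKO mouse 1 is coded HE/HO. Read as Vil1 and then Olfr78, WT/HO would be the floxed control without Cre. Whether the code or the eKO label of this mouse is wrong was not settled, and the mouse was kept among the eKO mice.

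Neuroendocrine cells store peptides and amines in dense-core granules. Granins are acidic proteins that aggregate in the trans-Golgi network, help such granules to form, and are themselves cut into peptides. The convertases PC1/3 (gene Pcsk1) and PC2 (gene Pcsk2) cleave prohormones after pairs of basic residues, carboxypeptidase E (Cpe) trims the basic residues that are left, and Pam amidates the C terminus of peptides that end in glycine. A pair of small granin-like proteins act on the convertases, proSAAS (gene Pcsk1n) as an inhibitor of PC1/3 and 7B2 (gene Scg5) as the chaperone that PC2 needs to mature. In the colon the cells with such granules are enteroendocrine cells, chiefly enterochromaffin cells, which make serotonin, and L cells, which make Glp1 and Pyy.

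Values are reads per gene scaled to 20000000 per library and rounded up, abbreviated CP20M. Reads on genes ranged from 1499825 to 2237474 in 5 of the sorted libraries, where 1 read was worth 8.94 to 13.3 CP20M. KO pool 1 held 532702 reads and 1 read there was worth 37.5 CP20M, so it is the least precise library. Crypt libraries held 6175301 to 10995300 reads, at 1.82 to 3.24 CP20M per read. Olfr78 itself, as the check of the labels, measured 4822 and 4401 CP20M in HE pools and 977 and 837 in KO pools, with 135 and 21 for Epcam+ve cells. In crypts it measured 88 and 111 in WT and 7 to 42 in KO mice, 61 to 124 in eCtrl mice, and 21 and 73 in the libraries labelled eKO 1 and eKO 2, so that the library labelled eKO 2 lay within the range of its controls. Reads outside the removed exon can still be counted for this gene.

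Of the members, 4 carried the pattern of a cyclic AMP response element near their transcription start, as TGACGTCA in Chgb, Scg2 and Pcsk1 and as TGACGTAA in Chga. The motif TGACGTNA, searched on both strands, was found in the 250 bases before the RefSeq start (GRCm38.p6) of Chga, Chgb, Scg2 and Pcsk1, that is in 4 of the 9 members with an entry, and in 2.92% of the 27025 genes with one. Its first base lay 44 bases before the start in Chga, 72 in Chgb, 68 in Scg2 and 78 in Pcsk1. These distances hold for the RefSeq starts. By the GENCODE M21 gene coordinates printed below, the matches of Chgb and Scg2 lie inside the gene, and those of Chga and Pcsk1 before it. The TATA box letters TATAAA, also searched on both strands, matched in none of the 9 members and in 14.3% of all genes. Cpe had no entry. The 30 bases around each match are shown because this pattern is what these promoters share. They are written 5′ to 3′ on the strand of the gene, with the motif in capitals.
Chga (chr12:102554886-102554915, forward strand): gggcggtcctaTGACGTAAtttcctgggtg
Chgb (chr2:132781559-132781588, forward strand): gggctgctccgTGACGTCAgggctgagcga
Scg2 (chr1:79440076-79440105, reverse strand): ggctgagccggTGACGTCAgcgtggaatgc
Pcsk1 (chr13:75089768-75089797, forward strand): ccaggtagatcTGACGTCAagagatggctt
A match of these letters is a description of the sequence, and binding was not measured.

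To ask how far Olfr78-expressing cells carry this machinery, GFP+ve cells of HE mice were first set against the Epcam+ve samples. Of the 10 members, 8 could be tested, and all 8 were higher in both HE pools, by 7.21-fold to 156-fold in the ratio of means. These 8 passed the test (limma on log2(CP20M + 10), with an adjusted p-value below 0.001 and at least 2 units of change in log2). Scg2 and Pcsk2 did not reach the level needed for testing, at least 40 CP20M in at least 2 of the 4 libraries. By the same rule, 259 of 16355 genes tested (1.58%) were called higher. The median log2 fold change was 6.0 over the 8 members and -0.05 over all genes tested. The members were chosen with earlier results of these data known, and the paper lists Chga and Cpe among its most upregulated genes here. The calls therefore describe the set and do not test it. Scg5 passed the filter on low values only through the HE pools and 1 of the Epcam+ve samples, and it had 4 reads in each Epcam+ve sample. On the recovered reads edgeR and DESeq2 called the 8 members higher as well, with 3.56% and 3.48% of genes called higher. With limma fitted without its mean-variance trend none of them passed, and the adjusted p-values ran from 0.00604 to 0.0125.

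**Figure D1:**
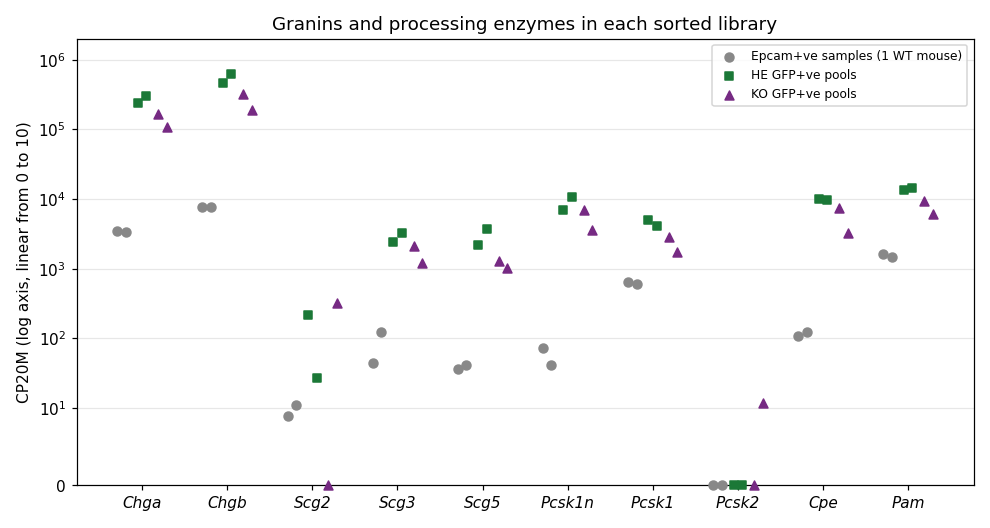
CP20M (vertical, log axis that is linear below 10) of the 10 members in each of the 6 sorted libraries, 2 points per group. Chga and Chgb lie at 107136 CP20M or more in every GFP+ve pool, 8 members lie above both Epcam+ve samples in all 4 pools, and Pcsk2 is at 0 except for 12 CP20M in KO pool 2.

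Among the members, the chromogranins held most of the reads in HE pools. Chgb (chromogranin B, chr2:132781278-132795079) stood at 7732 and 7674 CP20M among Epcam+ve cells but at 468364 and 630029 in HE pools, where it ranked 5 among all genes by reads in both. Its log2 fold change was 6.14 ± 0.23 (SE), with an adjusted p-value of 5.04e-06 in limma. Chga (chromogranin A, chr12:102554969-102565028), the usual marker of enteroendocrine cells, stood at 3504 and 3380 among Epcam+ve cells but at 242823 and 304540 in HE pools. The log2 fold change of Chga was 6.30 ± 0.20, with an adjusted p-value of 2.56e-06 in limma. Together the 10 members took 3.76% and 4.90% of all reads on genes in HE pools (Wilson 95% intervals 3.73 to 3.78 and 4.87 to 4.94, counting error only), and only 0.0690% and 0.0673% of those from Epcam+ve cells. Chga and Chgb made up 94.7% and 95.3% of that sum in HE pools.

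The granin-like partners of the convertases, and Scg3, were low in Epcam+ve samples and higher in HE pools. Pcsk1n (proSAAS, chrX:7919822-7924410) measured 72 and 42 CP20M there but 6881 and 10882 in HE pools. Its log2 fold change, 7.05 ± 0.33, is the largest among the 8 (adjusted p-value of 1.10e-05 in limma). The last bases of Pcsk1n overlap Eras on the other strand, and whether reads were counted by strand is not given in the sources used here. Scg5 (7B2, chr2:113776362-113829121) went from 36 and 42 to 2164 and 3681 CP20M, with 5.86 ± 0.37 as its log2 fold change. Scg3 (secretogranin III, chr9:75643189-75684056), which tethers Chga to the granule membrane, went from 45 and 124 to 2405 and 3294, a log2 fold change of 5.04 ± 0.44. HE pools and Epcam+ve samples did not overlap for any of these, and the share of all genes without overlap was not computed.

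Pcsk2 stood apart from its chaperone. Pcsk2 (chr2:143546156-143816285) gave 0 reads in both Epcam+ve samples, both HE pools and KO pool 1, and 1 read (12 CP20M) in KO pool 2. A count of 0 allows up to 3 reads, which is 26.8 to 113 CP20M across the sorted libraries, so that a low level of Pcsk2 was not detectable at this depth. Over all 18 libraries Pcsk2 collected 18 reads, at most 5 in a library, and 11 libraries had none. Scg5, in contrast, collected 188 and 276 reads in HE pools. Pcsk2 has annotated antisense genes, and reads on those could not be told apart if counting ignored strand.

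The other convertase and the trimming and amidating enzymes were all raised. Pcsk1 (PC1/3, chr13:75089826-75134861) went from 653 and 607 CP20M in Epcam+ve cells to 4937 and 4148 in HE pools. Its log2 fold change was 2.83 ± 0.20 (adjusted p-value of 7.40e-05 in limma). Cpe (chr8:64592542-64693054) rose from 108 and 124 to 9988 and 9682, with a log2 fold change of 6.29 ± 0.21 (adjusted p-value of 3.25e-06 in limma). Pam (chr1:97795114-98095646) rose from 1636 and 1470 to 13463 and 14575, with a log2 fold change of 3.17 ± 0.17 (adjusted p-value of 1.96e-05 in limma). Pcsk1 and Pam had the highest levels of the 8 in Epcam+ve samples after the chromogranins also per kb of exon, at 112 ± 6 and 131 ± 10 CP20M per kb (SD, n = 2).

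Levels of different genes are compared here per kb of merged exon length (GENCODE M21). In HE pools the order was Chgb with 200437 ± 41721 CP20M per kb, Chga with 99304 ± 15835, Pcsk1n with 4050 ± 1290, Cpe with 3770 ± 83, Scg5 with 1863 ± 684, Pam with 1179 ± 66, Scg3 with 1041 ± 230, Pcsk1 with 811 ± 100 and Scg2 with 48.9 ± 54.0 (SD, n = 2 pools). The ranges of the pools overlapped between Pcsk1n and Cpe, between Pam and Scg3, and between Scg3 and Pcsk1, and did not overlap between other neighbours in this order. In KO pools the order of the means was the same, with Pam at 659 ± 194, Scg3 at 607 ± 228 and Pcsk1 at 412 ± 137. Ranges of the KO pools overlapped between Pcsk1n and Cpe and between all neighbours from Scg5 to Pcsk1. Relative to Pcsk1, the level of its inhibitor Pcsk1n in CP20M was 0.110 and 0.0692 for Epcam+ve cells, 1.39 and 2.62 in HE pools and 2.47 and 2.02 in KO pools. This ratio is not per kb, with 2193 bp of exon in Pcsk1n and 5604 in Pcsk1, so it compares libraries and not the genes. In the Epcam+ve samples it rests on 8 and 4 reads of Pcsk1n.

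Scg2 (secretogranin II, chr1:79434669-79440120), the precursor of secretoneurin, varied between pools rather than between groups. It measured 9 and 11 CP20M for Epcam+ve cells, 219 and 27 in HE pools, and 0 and 326 in KO pools, which is 19, 2, 0 and 28 reads in the 4 pools. KO pools overlapped both other groups, and both HE pools lay above both Epcam+ve samples, which had 1 read each. No fold change was computed. The summed markers of L cells (Gcg, Pyy, Insl5 and Etv1) also differed between pools of 1 genotype, at 8873 and 1590 in HE pools and 3832 and 5695 in KO pools. Summed goblet markers did so too, at 137218 and 57981 in HE pools and 56920 and 310556 in KO pools. With 2 reads of Scg2 in HE pool 2 and 0 in KO pool 1, the order of the pools by Scg2 is not resolved. The part of any cell type in the level of Scg2 was not tested.

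Other genes of the granule were read from lists. Among 14 other cargo, membrane and assembly proteins of dense-core granules, all tested, 6 were called higher and none lower, with a median log2 fold change of 1.43. The 3 largest changes were in Cadps, a priming factor for granule release (from 108 and 42 to 6548 and 7388 CP20M, log2 fold change of 6.47 ± 0.38), in Resp18, a granule protein (from 81 and 93 to 5731 and 10055, 6.29 ± 0.30), and in Ptprn, the granule membrane protein IA-2 (from 81 and 62 to 5029 and 6428, 6.14 ± 0.27). Of 19 subunits of the vacuolar proton pump tested, which acidifies the granule, 1 was called higher, Atp6v1b2, from 832 and 925 to 8067 and 12842 CP20M (log2 fold change of 3.52 ± 0.24). The median over the 19 was 0.60.

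Enzymes outside the neuroendocrine set did not pass. None of 6 other proprotein convertases tested (Furin and relatives) was called, with a median of -0.13, none of 11 other carboxypeptidases and peptide-modifying enzymes, with a median of 0.33, and none of 6 genes that supply Pam with copper and ascorbate, with a median of -0.09. Of these, 4, 5 and 3 had an unadjusted p-value under 0.05 in limma, and 6086 of all 16355 genes did. Among the 11, 9 had a log2 fold change above 0 and 2 below it. Without being called, Tpst1 went from 9 and 42 CP20M in Epcam+ve samples to 415 and 534 in HE pools. Tpst2 went from 152 and 165 to 645 and 574, and Ece1 from 3558 and 3154 to 7376 and 8921. Of 9 peptide hormone precursors tested, 2 were called higher. Tac1, the precursor of substance P, went from 54 and 144 to 4327 and 9708 CP20M, and Sct, the precursor of secretin, from 278 and 350 to 7319 and 16336.

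The labelled cell types were compared with their markers. Enterochromaffin markers (Tph1, Slc18a1, Ddc and Lmx1a) summed to 149506 and 179914 CP20M in HE pools and to 2469 and 2437 for Epcam+ve cells, and general enteroendocrine markers (Neurod1, Insm1, Fev, Rfx6 and Syp) to 20438 and 28126 against 332 and 187. The archive labels the Epcam+ve samples as enteroendocrine too, and these marker sums there were low. All 5 epithelial markers were found in each sorted group, summing to 38185 to 68364. All 5 goblet markers were also present, at 317179 and 264120 for Epcam+ve cells, 137218 and 57981 in HE pools and 56920 and 310556 in KO pools. The 5 colonocyte markers summed to 87931 and 76464, 61345 and 46181, and 19450 and 50351 in the same order, but Krt20 ran against the other 4, with 4434 and 3822, 24878 and 31364, and 14755 and 11876. Without Krt20 the sums were 83497 and 72642, 36467 and 14817, and 4695 and 38475, so that KO pool 2 lay above both HE pools.

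GFP+ve cells of KO mice were compared with the same Epcam+ve samples to see whether the machinery was still raised without Olfr78. The 2 comparisons share these controls, so they are not independent. The same 8 members could be tested, and in both KO pools each of them lay above both Epcam+ve samples. Of all genes tested, 38.4% had a log2 fold change above 0, and the share without overlap was not computed. The log2 fold changes of the 8 members lay between 1.82 ± 0.33 (Pcsk1) and 6.27 ± 0.46 (Pcsk1n), with a median of 4.79. The median over all genes tested was -0.26. None was called at the adjusted p-value of 0.001 in limma, which called 0 of 15779 genes (0%), of which 2925 had an unadjusted p-value under 0.05. The adjusted p-values of the 8 members lay between 0.0173 (Chga and Pcsk1n) and 0.0833 (Pcsk1) in limma. edgeR on the recovered reads called 4 of the 8 higher, Chga, Scg5, Pcsk1n and Cpe, with 0.190% of genes called higher, and DESeq2 called all 8, with 1.51% called higher. Leaving out 1 library gave 6 members called higher without Epcam+ve sample 1 (1.07% of genes called higher), 6 without Epcam+ve sample 2 (0.933%), 6 without KO pool 1 (0.704%) and 8 without KO pool 2 (2.25%, with 1753 of 14734 genes called in either direction).

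**Figure D2:**
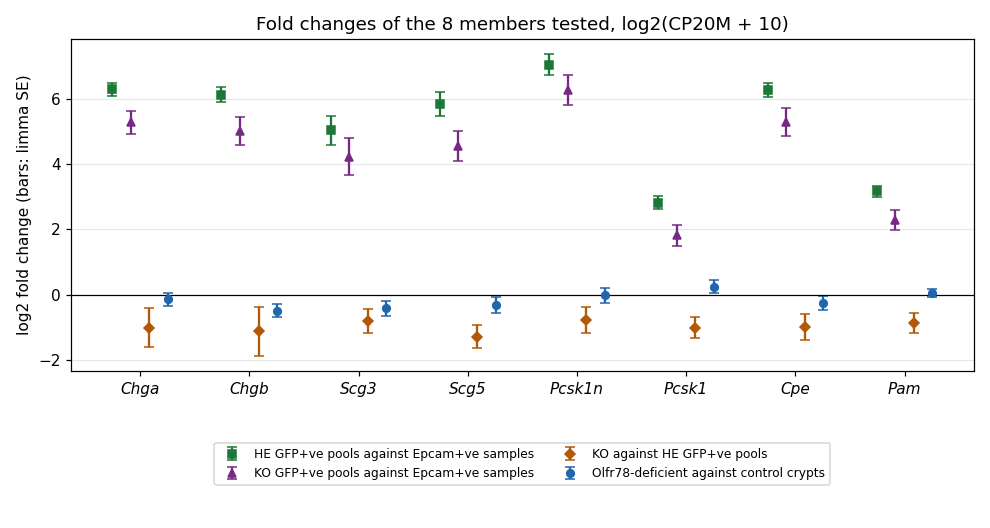
Log2 fold changes on log2(CP20M + 10) with their SE from limma (vertical) for the 8 members tested, in 4 comparisons. GFP+ve pools of both genotypes lie between 1.82 and 7.05 above the Epcam+ve samples, KO pools lie 0.78 to 1.30 below HE pools, and the crypt values lie between -0.49 and 0.25.

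KO and HE pools were then compared directly, to ask what the loss of the receptor changes in the cells that would express it. The mean of the KO pools was lower for all 8 members, between 0.393 (Scg5) and 0.598 (Pcsk1n) of the HE mean, and for 7 of them both KO pools lay below both HE pools, as they did for 26.1% of all genes tested. None of the 8 was called at an adjusted p-value under 0.05 in limma, which called 0 of 11892 genes (0%). At an unadjusted p-value under 0.05 limma found 503 genes, among them Scg5, Pcsk1, Cpe and Pam. edgeR called 0 genes and DESeq2 8 genes, none of them a member. The median log2 fold change was -0.18 over all genes and -1.0 over the 8 members. Rescaling by the median of ratios set the median of all genes at -0.0033, and the members then lay between -1.12 (Scg5) and -0.61 (Pcsk1n).

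The study's methods judged these pools by a criterion, a difference of means larger than 2 mean SDs of the groups together with a change of more than 1.5-fold. It was met downwards by 6 of the 8 members, Chga, Chgb, Scg5, Pcsk1, Cpe and Pam, and by 9.99% of all genes. Over all genes 384 met it upwards and 1188 downwards. With that rescaling, 687 met it upwards and 600 downwards, and 4 members met it, Chga, Scg5, Pcsk1 and Pam, all lower in KO pools. This criterion is no test and has no error rate.

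Among the granins, Chga measured 242823 and 304540 CP20M in HE pools and 168049 and 107136 in KO pools, a log2 fold change of -1.02 ± 0.60 (limma, adjusted p-value of 0.931). Chgb measured 468364 and 630029 against 322506 and 191903, a log2 fold change of -1.13 ± 0.76. KO pool 1 was above KO pool 2 for all 8 members, by 1.25-fold (Scg5) to 2.28-fold (Cpe). For Scg5 the values were 2164 and 3681 against 1277 and 1023, the largest change of the 8 at -1.30 ± 0.35 (unadjusted p-value of 0.00587 and adjusted p-value of 0.931 in limma). Scg3 measured 2405 and 3294 against 2103 and 1221. Pcsk1n was the member whose pools overlapped, with 6881 and 10882 against 7059 and 3568.

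Among the enzymes, Pcsk1 measured 4937 and 4148 CP20M in HE pools and 2854 and 1767 in KO pools, a log2 fold change of -1.01 ± 0.32. Cpe measured 9988 and 9682 against 7434 and 3266, a log2 fold change of -1.0 ± 0.40. Pam measured 13463 and 14575 against 9462 and 6206, a log2 fold change of -0.87 ± 0.32. Both HE pools exceeded both KO pools for each of these enzymes, as for 26.1% of all genes tested, and none passed the adjusted threshold. Without KO pool 1, the shallow library, limma called 6 members lower, Scg3, Scg5, Pcsk1n, Pcsk1, Cpe and Pam, with 1.90% of genes called lower, and the lone KO pool 2 was then assumed to vary like the HE pools.

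**Figure D3:**
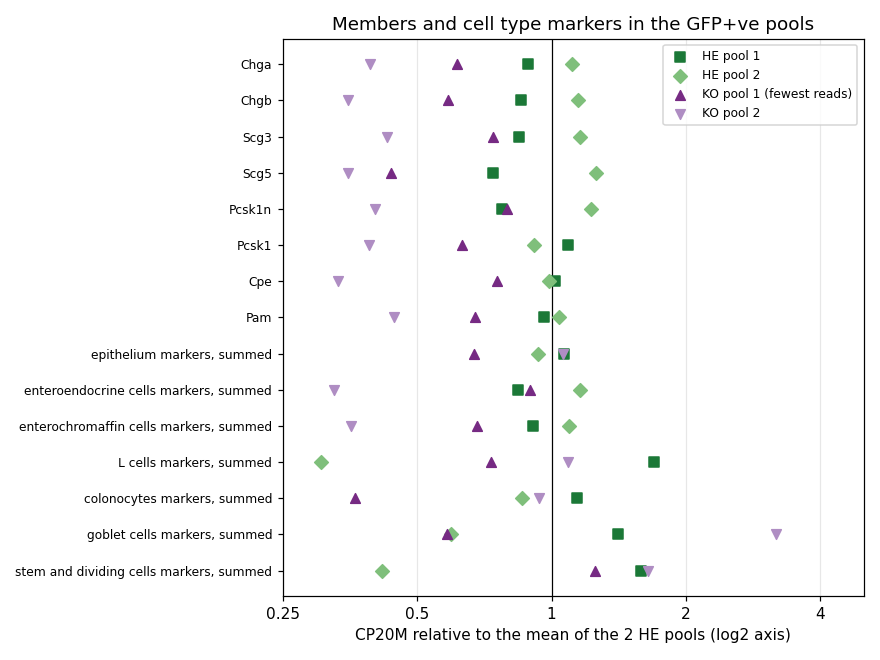
CP20M of the 8 members tested and of summed cell type markers in each GFP+ve pool, divided by the mean of both HE pools (horizontal, log2 axis, 1 marks the HE mean). The members of KO pool 2 lie at 0.33 to 0.44 of the HE mean and those of KO pool 1 at 0.44 to 0.79, while goblet markers are highest in KO pool 2.

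The KO pools differed from each other in the markers of other cells. In KO pool 2, where the members stood at 33.2% to 44.3% of the HE mean, all 5 goblet markers together reached 310556 CP20M against 57981 and 137218 in HE pools, and the 5 enteroendocrine markers stood at 7916 against 20438 and 28126. In KO pool 1, where the members stood at 43.7% to 79.5%, the enteroendocrine markers were at 21703, within the range of HE pools, and the goblet markers at 56920, of which Muc2 made up 54740. The other 4 goblet markers summed to 2180 in KO pool 1 and 58194 in KO pool 2 against 25305 and 4148 in HE pools. The enterochromaffin markers were at 112372 and 58449 in the KO pools, which is 0.519 of the HE mean, close to the ratios of 0.503 for Chga and 0.468 for Chgb. The part of these cells in the result was not tested. In libraries of pooled cells, fewer cells of a type and less RNA per cell cannot be told apart. Of the other granule proteins on the list, 4 of 13 tested met the criterion downwards and none upwards, and their median log2 fold change was -0.73. Of 6 other convertases none met it, with a median of -0.06. Over all genes 9.99% met it downwards and the median was -0.18, so that none of 6 is close to the share over all genes.

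In whole crypts, where enteroendocrine cells are a small minority, the members were compared between 7 mice labelled KO or eKO, called Olfr78-deficient by their labels, and 5 controls, with the line as a covariate. The 7 include the library labelled eKO 2, which held 73 CP20M of Olfr78 against 61 to 124 in its controls. None of the 8 members tested was called in limma (adjusted p-value up to 0.2, change beyond 1.5-fold), and 4 of 16447 genes (0.0243%) were. At an unadjusted p-value under 0.05 stood 1267 genes, among them 1 member, Chgb. edgeR called 9 genes and DESeq2 42, none of them a member. The median log2 fold change was -0.21 over the 8 members and 0.03 over all genes. Without the library labelled eKO 2, 0 members and 32 of 16354 genes were called, and the members lay between -0.51 ± 0.25 (Scg3) and 0.24 ± 0.21 (Pcsk1). Scg3 reached 40 CP20M in 4 of the 12 mice and Scg5 in 2, both of them controls, so that Scg5 passed the filter only through controls. Both genes stayed between 14 and 67 CP20M in all crypts, and Scg2 and Pcsk2 were below it.

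**Figure D4:**
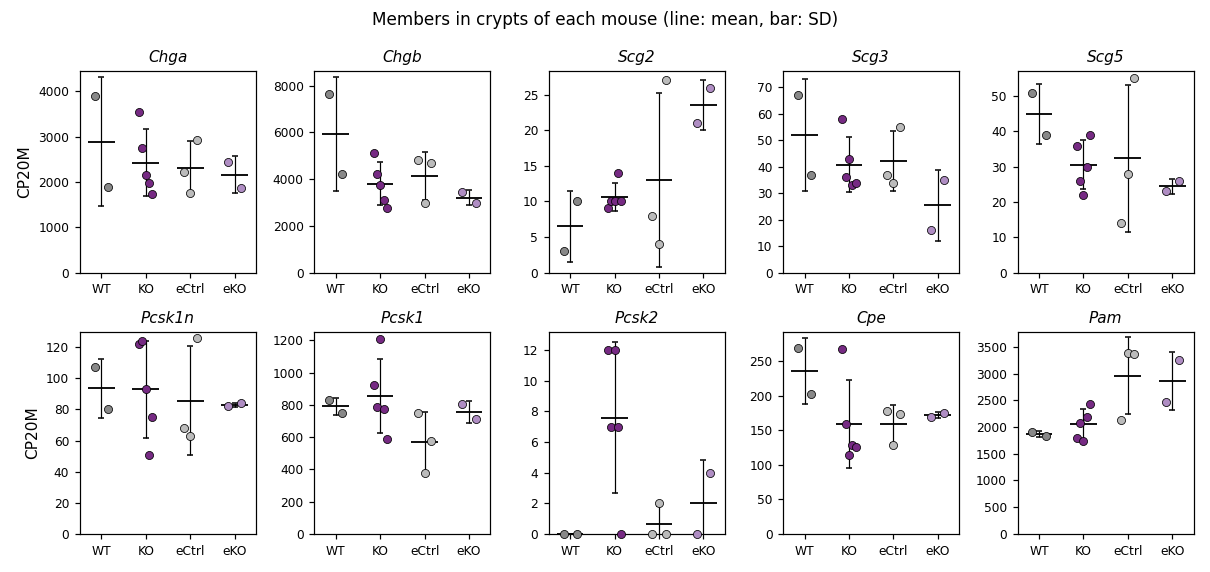
CP20M (vertical, linear from 0) of the 10 members in crypts of each of 12 mice in 4 groups, with the group mean (line) and SD (bar). Points of deficient and control mice overlap for the 8 members tested, and Scg2 and Pcsk2 do not exceed 27 and 12 CP20M.

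Chgb had the smallest p-value of the members in crypts. It measured 7646 and 4210 CP20M in WT, between 2784 and 5109 (median 3759) in KO, 4797, 2956 and 4673 in eCtrl, and 3447 and 2971 in eKO mice. The log2 fold change was -0.49 ± 0.19, with an unadjusted p-value of 0.0215 and an adjusted p-value of 0.618 in limma. Groups overlapped in both lines. Chga measured 3896 and 1886 in WT, between 1727 and 3552 in KO, 2215, 1755 and 2932 in eCtrl, and 2448 and 1867 in eKO mice, a log2 fold change of -0.15 ± 0.21. WT mouse 1 had the highest level of both chromogranins among the 12 mice, and without it the log2 fold change was -0.27 for Chgb and 0.085 for Chga.

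Within the lines the values differed in size. In the Olfr78-GFP line alone, limma called 2 of 7 members tested lower, with 1.53% of genes called lower, Chgb at -0.61 ± 0.23 (adjusted p-value of 0.124) and Cpe at -0.59 ± 0.27 (adjusted p-value of 0.194). In the Vil1Cre/+-Olfr78fx line alone, Chgb was at -0.34 ± 0.23 and Cpe at 0.11 ± 0.23, and limma called 0 of 15401 genes. The difference between the lines was tested as an interaction. It was called for 0 of the 8 members and for 5 of 16447 genes (0.0304%), and was 0.27 ± 0.38 for Chgb and 0.71 ± 0.40 for Cpe. The count over all genes rose to 4296 of 16354 without the library labelled eKO 2 and to 616 of 16371 without eCtrl mouse 1, with 0 members called in either fit. Without eKO 2 the difference was 0.38 ± 0.44 for Chgb and 0.68 ± 0.47 for Cpe. Without the library labelled eKO 2, whose Olfr78 level lay in the range of the controls, the log2 fold change of Chgb over both lines was -0.48 ± 0.21.

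With both lines in 1 fit, no enzyme passed the threshold in crypts. Cpe measured 269 and 202 CP20M in WT, 114 to 268 (median 129) in KO, 178, 128 and 173 in eCtrl, and 169 and 175 in eKO mice, a log2 fold change of -0.27 ± 0.21. Pcsk1 measured 829 and 752 in WT, 587 to 1211 (median 788) in KO, 751, 380 and 578 in eCtrl, and 803 and 710 in eKO mice, at 0.25 ± 0.19. Pam measured 1904 and 1829, 1744 to 2443 (median 2083), 2129, 3388 and 3374, and 2476 and 3253 in the same order, at 0.05 ± 0.13. Pcsk1n stayed between 51 and 126 in all 12 mice, at -0.02 ± 0.23. Enteroendocrine markers summed to 500 and 316 in WT and 345 to 512 in KO, 226 to 345 in eCtrl, and 320 and 313 in eKO crypts. None of the genes on the other lists was called in crypts.

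The ratio of Chgb to Chga was looked at after these values were seen and was not tested. It was 1.96 and 2.23 in WT crypts and 1.44 to 1.75 in KO crypts. In the other line it was 2.17, 1.68 and 1.59 in eCtrl mice (1.594 in eCtrl mouse 3) and 1.41 and 1.59 in eKO mice (1.591 in eKO mouse 2). In the Olfr78-GFP line all 5 KO mice lay below both WT mice. In the other line the library labelled eKO 2 was level with eCtrl mouse 3, and without it the remaining eKO mouse, at 1.41, lay below the 3 controls. Across the lines the ranges overlapped. In sorted cells the ratio was 2.21 and 2.27 for Epcam+ve samples, 1.93 and 2.07 in HE pools and 1.92 and 1.79 in KO pools.

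**Figure D5:**
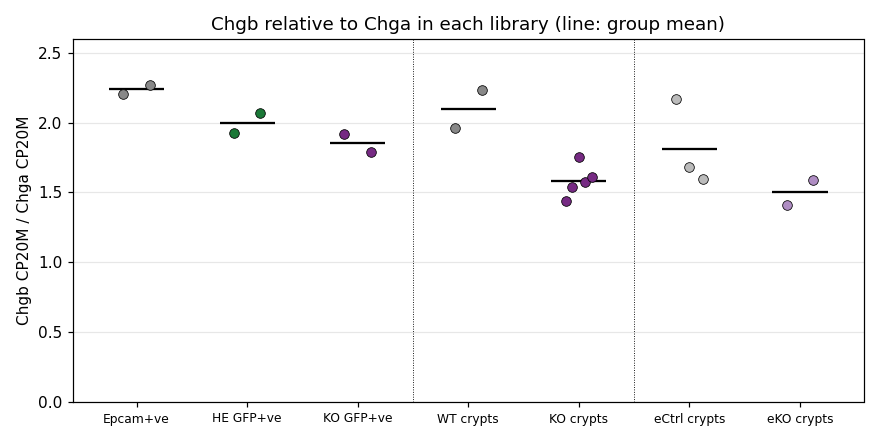
Ratio of Chgb to Chga CP20M (vertical, linear from 0) in each of the 18 libraries by group, with the group mean as a line. WT crypts lie at 1.96 and 2.23 above all 5 KO crypts at 1.44 to 1.75, and eKO mouse 2 and eCtrl mouse 3 are both at 1.59.

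For Chga, Chgb, Cpe and Pcsk1n, the genes whose levels followed them most closely across crypts were found by Pearson's r of log2(CP20M + 10) over the 12 libraries, after the mean of each line was subtracted, among 13113 genes with at least 40 CP20M in all 12. These coefficients describe libraries that share depth and cell composition. Chga was most like Tph1, the rate-limiting enzyme of serotonin synthesis in enterochromaffin cells (r = 0.98), Chgb (0.86) and Abca5 (0.84), and Pcsk1n and Cpe stood at places 16 and 17 with 0.75 each. Chgb was most like Rsl1 (0.91), Gm10459 (0.87) and Chga (0.86). Cpe was most like Hps6 (0.88), Zfp358 (0.87) and Smoc2 (0.85), with Chgb at place 7 (0.79). Pcsk1n was most like Gm10135 (0.82), D3Ertd254e (0.78) and Cald1 (0.77), with Chga at place 8 (0.75). Pcsk1 and Pam followed Chga less, at 0.33 and -0.29.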

How the data were processed

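RNA of 18 libraries was sequenced, 6 of sorted colon cells and 12 of crypts. Per the labels and the methods, reads were mapped to GRCm38 with STAR and counted per gene with HTSeq on Ensembl release 90 (tool versions not given in the sources used here). What the authors deposited for all 18 libraries is a signal, the reads of a gene scaled to 20000000 and rounded up. For crypts the deposited values are a score made alike. All columns were used. In each library 99.84% to 99.99% of the values above 0 were exactly equal to a whole number of reads times the worth of 1 read, rounded up, and count tests on them called 757 (edgeR) and 720 (DESeq2) genes when HE pools were compared with Epcam+ve samples.

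The tests used limma 3.58.1 with a trend on log2(CP20M + 10), edgeR 4.0.16 and DESeq2 1.42.0 in R 4.3.3, with Benjamini-Hochberg adjustment over all genes tested. Fold changes on this scale understate those of low genes. Genes with at least 40 CP20M (2 CPM) in at least 2 libraries compared were tested, and for KO against HE pools above 40 in all 4. Tests stayed within a deposited table, except for crypts of both lines, where the line was a covariate. Per the methods the study tested with edgeR. The files turned out to hold whole reads under the scaling, and limma was kept. Pooled animals and 2 samples of 1 mouse mean that p-values measure the spread between these samples. The fits were also run on simulated reads with known changes and the same setting of the spread for all genes and libraries. That does not show how they perform on these pools.

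The members and the gene lists were chosen with earlier results of these data known. Named genes are all members, the Olfr78 check, at most 3 genes called per list and direction, and the 3 genes most like Chga, Chgb, Cpe and Pcsk1n. Tpst1, Tpst2 and Ece1 were not called and are named for their levels. Coordinates are from GENCODE M21 and promoter sequences from RefSeq. Alternatives were other pseudocounts, filters, scalings, tools, fits and left-out libraries.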

Additional observations from a re-analysis of the deposited data

Results flagged for a closer look

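Scg2 in KO crypts measured 14 CP20M in 1 mouse (6 reads) against 9 to 10 in the other four, a gap of 0.80 of the whole range where the critical value is 0.71. In this library 1 read was worth 2.30 CP20M, and the other mice had 3 to 4 reads. Only the 5 KO crypt mice were enough for this rule. In them 12 quantities were examined for a mouse far from the others. These were the 10 members, the ratio of Chgb to Chga and the members' share of reads, which are not independent. Of the 12, 1 was flagged, and chance flags about 1 in 20.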

How the results depend on the processing

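The direction of all 8 members held in each alternative for the 3 comparisons of sorted cells (111, 111 and 120 values). Genes called in HE pools against Epcam+ve samples, 287, became 77 with a pseudocount of 1, 522 with 40, 757 with edgeR, 720 with DESeq2, 0 with no trend of the spread, 117 with all 6 sorted libraries in 1 fit and 317 to 1195 with 1 library left out (the most without HE pool 1). The 8 member calls became 7 with a pseudocount of 1 (Scg3 lost, adjusted p = 0.00368) and 0 with no trend, where adjusted p lay between 0.00604 and 0.0125. For KO pools against Epcam+ve samples, 0 genes and 0 members called became 15 and 3 with no filter, 31 and 4 with edgeR, 253 and 8 with DESeq2, 33 and 5 with all 6 libraries in 1 fit, and 153 to 1753 and 6 to 8 with 1 library left out (the most without KO pool 2). For KO against HE pools, 0 genes became 2 with no filter, 8 with DESeq2, and 0 to 373 (members 0 to 6) with 1 library left out, the most without KO pool 1. Where this left 1 sample in a group, it was assumed to vary like the others. The criterion of the methods was met by 1572 genes and by 2422 when 40 CP20M were asked of at least 2 pools. For crypts, 4 genes became 9 with edgeR, 42 with DESeq2, 0 with no trend, 1514 (2 members) in the Olfr78-GFP line alone, 0 in the other line and 0 to 1134 with 1 library left out, where 0 members were called. The highest count came without eKO mouse 1. The difference between the lines, 5 genes, became 3 with a pseudocount of 1, 3 with no filter, 1 with at least 40 CP20M in every library, 66 with DESeq2 and 2 to 4296 with 1 library left out (4296 without eKO mouse 2, 616 without eCtrl mouse 1), and 0 members were called. The cause of these shifts was not tested.

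The numbers of pools and mice name different animals. Deviations of same-numbered libraries correlated at 0.030, 0.023 and -0.24 for the 3 comparisons of sorted cells, at 0.056 and -0.094 for the first and second mice of the Olfr78-GFP line and at 0.57 and 0.35 for those of the other line. With the number as a replicate block, the genes called were 523 for HE pools and 194 for KO pools against Epcam+ve samples (8 and 7 members), 0 for KO against HE pools, 27 for crypts and 50 for the difference between the lines, with 0 members in the last 3. A crossed block for KO against HE pools, added after seeing the data, gave 85 genes and 2 members.

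Some log2 fold changes in crypts, none of them called, changed sign. With the replicate block they were 0.16 for Chga, 0.34 for Pcsk1n and 0.0050 for Cpe, without a covariate for the line 0.017 for Pcsk1n and -0.12 for Pam, and in the Vil1Cre/+-Olfr78fx line alone 0.018 for Pcsk1n, 0.11 for Cpe and -0.030 for Pam. With 1 library left out they ranged from -0.34 to 0.085 for Chga, from -0.092 to 0.093 for Pcsk1n and from -0.029 to 0.14 for Pam. For the difference between the lines, Pcsk1n was at -0.028 with edgeR, -0.024 with DESeq2 and -0.073 with the block, where Chga was at -0.089 and Pam at 0.026. With 1 library left out that difference ranged from -0.39 to 0.65 for Chga, from -0.16 to 0.70 for Chgb, from -0.71 to 0.079 for Scg3, from -0.081 to 0.43 for Scg5, from -0.12 to 0.36 for Pcsk1n and from -0.38 to 0.040 for Pam. Depth limits Scg2, Pcsk2 and, in the Epcam+ve samples, Scg3, Scg5 and Pcsk1n.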
